A study of Mus musculus with 6 samples.

Results

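Kruppel-like factors (KLFs) are zinc finger transcription factors, and 10 of their genes were followed in the myocardium of NS-DADm mice and of wild type (WT) mice: Klf2, Klf3, Klf4, Klf6, Klf7, Klf9, Klf10, Klf11, Klf13 and Klf15. They were taken by gene symbol from the gene tables, which together listed 17891 genes, and all 10 were listed in all 6 samples and passed the filter on low counts. RNA sequencing was done on 3 NS-DADm and 3 WT samples from 6-week-old mice of the C57BL/6 background, with no treatment named in the labels. In NS-DADm mice, every cell of the body has knock-in mutations in the domains through which the nuclear receptor corepressors NCOR and SMRT activate the histone deacetylase HDAC3. WT mice carry neither mutation. Nothing in the labels states that the samples are from different mice, and the p-values therefore reflect sample-to-sample spread that may be technical.

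KLFs bind GC-rich and CACCC-containing DNA through zinc fingers at their C-terminal end, and differ in the parts that recruit coactivators or corepressors. Klf2 and Klf4 are known from endothelial cells, where blood flow induces them, and Klf15 is known from heart muscle, where it controls nutrient use and restrains growth. Klf9 responds to glucocorticoid and thyroid hormones, Klf10 and Klf11 were first described as genes induced early by transforming growth factor beta, and Klf3 is a repressor that recruits the CtBP corepressors.

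Promoter sequences are given for Klf3, the KLF gene that passed the test, and for Klf15, Klf4 and Klf2, which had the next smallest p-values. Each is the 250 bases before the annotated start, 5′ to 3′, from RefSeq on the build GRCm38.p6. Capitals mark matches on either strand to CACCC, to the GC box GGGCGG, to the E-box CACGTG, to TGACG, the core of the cAMP response element, and to the MEF2 motif.
Klf3, chr5:64803271-64803520, plus strand: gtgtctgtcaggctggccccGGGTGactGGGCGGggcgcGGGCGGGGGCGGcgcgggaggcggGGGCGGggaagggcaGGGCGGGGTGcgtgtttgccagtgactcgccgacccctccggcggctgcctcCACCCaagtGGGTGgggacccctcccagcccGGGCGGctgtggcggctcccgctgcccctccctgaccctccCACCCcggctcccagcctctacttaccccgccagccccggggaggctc
Klf4, chr4:55532476-55532725, minus strand: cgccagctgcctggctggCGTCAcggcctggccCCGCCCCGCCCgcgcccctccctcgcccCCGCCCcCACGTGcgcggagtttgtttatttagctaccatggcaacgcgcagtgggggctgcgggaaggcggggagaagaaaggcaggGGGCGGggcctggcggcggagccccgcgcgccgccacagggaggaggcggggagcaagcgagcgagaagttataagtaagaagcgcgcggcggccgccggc
Klf15, chr6:90462326-90462575, plus strand: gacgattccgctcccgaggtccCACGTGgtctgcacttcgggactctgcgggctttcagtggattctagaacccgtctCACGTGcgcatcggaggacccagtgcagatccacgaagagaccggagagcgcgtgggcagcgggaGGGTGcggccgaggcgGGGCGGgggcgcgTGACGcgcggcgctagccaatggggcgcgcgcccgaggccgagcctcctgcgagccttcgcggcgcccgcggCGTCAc
Klf2, chr8:72318812-72319061, plus strand: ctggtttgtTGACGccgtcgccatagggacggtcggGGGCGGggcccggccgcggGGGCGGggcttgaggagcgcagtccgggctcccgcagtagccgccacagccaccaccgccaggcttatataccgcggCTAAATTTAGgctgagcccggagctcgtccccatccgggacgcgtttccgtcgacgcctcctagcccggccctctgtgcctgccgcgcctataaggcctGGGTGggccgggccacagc
The Klf3 window held 5 CACCC and 6 GC box matches, with 1 pair of matches overlapping, and no E-box. The Klf15 window held 2 E-boxes, the sequence bound by the clock factors CLOCK and BMAL1, and the Klf4 window 1 E-box. The Klf2 window held the only MEF2 motif among the windows of the described KLF genes, 118 bases before the start. RefSeq windows were at hand for 9 of the 10 genes, Klf10 being the one without. CACCC was found in 6 of 9, against 52.0% of all 32851 windows, and the GC box in 8 of 9, against 32.7%. The E-box was found in 4 of 9 (Klf4, Klf6, Klf11 and Klf15), against 6.02%, TGACG in 5 of 9, against 17.8%, and the MEF2 motif in 1 of 9, against 0.508%. The 9 windows were 59.2% to 78.4% G and C, against a median of 52.4% over all windows, and the shares were not matched for this.

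Total expected counts were 12262523 to 12758311 in the NS-DADm samples and 10183792 to 11205221 in the WT samples, so every NS-DADm library was deeper. Heart muscle markers were abundant in every sample: 8 cardiomyocyte markers summed to 56001 to 63731 FPKM in NS-DADm and 56499 to 64469 FPKM in WT. FPKM is the read count scaled by gene length and by the mapped fragments of the library. Libraries of both groups stood apart in transcripts of the atria. The 6 atrial markers summed to 3773, 574.5 and 6585 FPKM in NS-DADm 1, 2 and 3, against 535, 271 and 4691 FPKM in WT 1, 2 and 3. NS-DADm 1, NS-DADm 3 and WT 3 are therefore called the high-atrial libraries below, and ratios of NS-DADm to WT means within them and within the other libraries are given beside the results, with no test.

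As levels per gene length, Klf2 and Klf9 were the most abundant KLF genes, followed by Klf15, Klf6 and Klf4. Averaged over the 6 samples they stood at 61.2, 60.0, 40.4, 27.6 and 23.9 FPKM. Klf13 (14.8 FPKM), Klf3 (13.0), Klf10 (6.89), Klf11 (4.24) and Klf7 (3.44) followed. Klf2 and Klf9 overlapped in range, with Klf2 above Klf9 in 3 of 6 samples. Klf9 was above Klf15, Klf15 above Klf6, Klf3 above Klf10 and Klf10 above Klf11 with no overlap between their ranges. Klf6 and Klf4 overlapped: Klf4 was above Klf6 in NS-DADm 1 and 2 and below it in NS-DADm 3 and in the WT samples. The summed level of the 10 genes was 291, 276 and 258 FPKM in NS-DADm 1, 2 and 3, against 245, 216.5 and 246 FPKM in WT 1, 2 and 3. Klf2, Klf9 and Klf15 together held 61.5% to 66.0% of that sum in NS-DADm and 62.0% to 65.0% in WT.

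**Figure D1:**
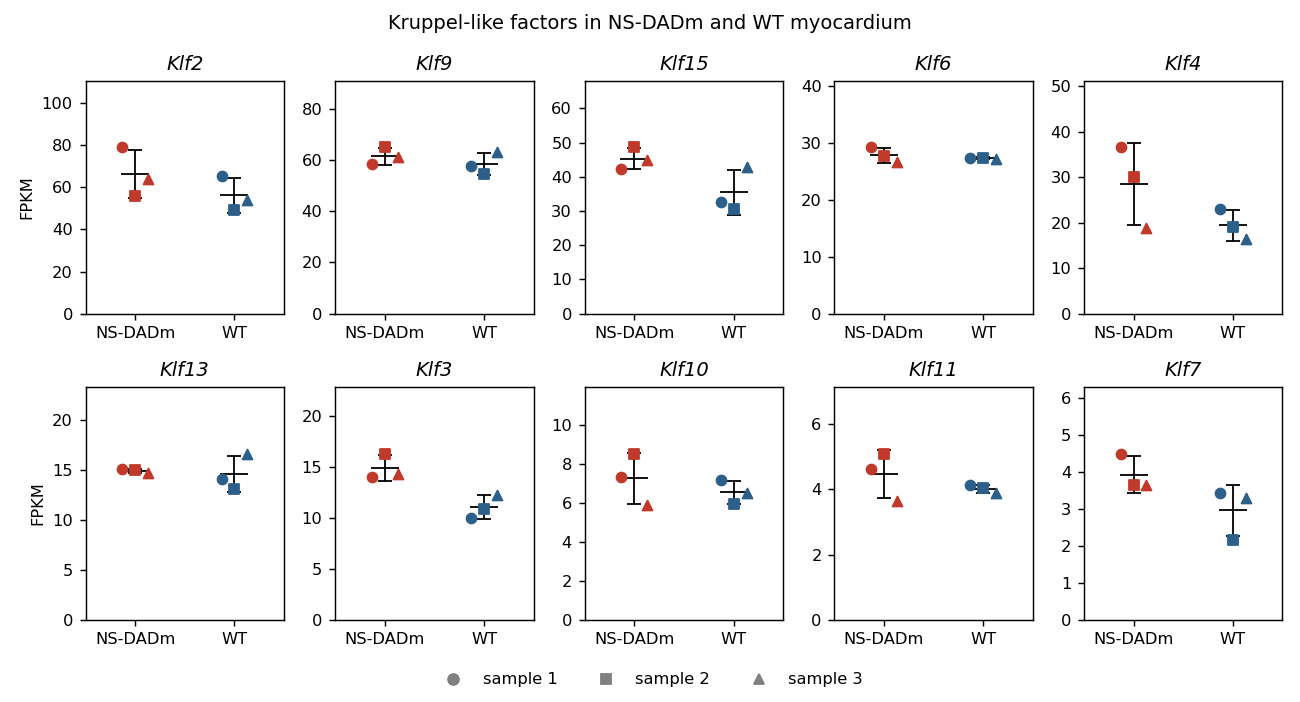
FPKM of the 10 KLF genes in each NS-DADm and WT sample, ordered by mean level, with each axis starting at 0; black bars are the mean and SD of 3 samples and symbols mark the sample number. The NS-DADm samples lie above the WT samples without overlap in Klf3 and Klf7, while Klf4 in NS-DADm spreads from 18.8 to 36.5 FPKM.

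Of the 10 KLF genes, Klf3 rose in NS-DADm and the other 9 did not pass the test, against a background of 3.20% of 13130 tested genes called, 1.79% upward. The log2 fold change was positive in 10 of 10, against 49.3% of all tested genes, and its median was 0.22, against -0.003 over all tested genes. These 10 genes were chosen with earlier results of these data known. Klf12 and Klf16, the other KLF genes tested, had log2 fold changes of 0.04 and -0.30. NS-DADm and WT samples were without overlap in 2 of 10, both higher in NS-DADm, against 23.4% of tested genes in either direction and 8.94% in that one. An unadjusted p under 0.05 was reached by Klf3, Klf15 and Klf4, which is 3 of 10, against 18.1% of tested genes. Genes were tested by the quasi-likelihood method of edgeR, and p-values were adjusted by Benjamini-Hochberg over all tested genes, with a threshold of 0.05. In bulk tissue, a change in the number of cells of a type and a change in RNA per cell cannot be told apart.

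**Figure D2:**
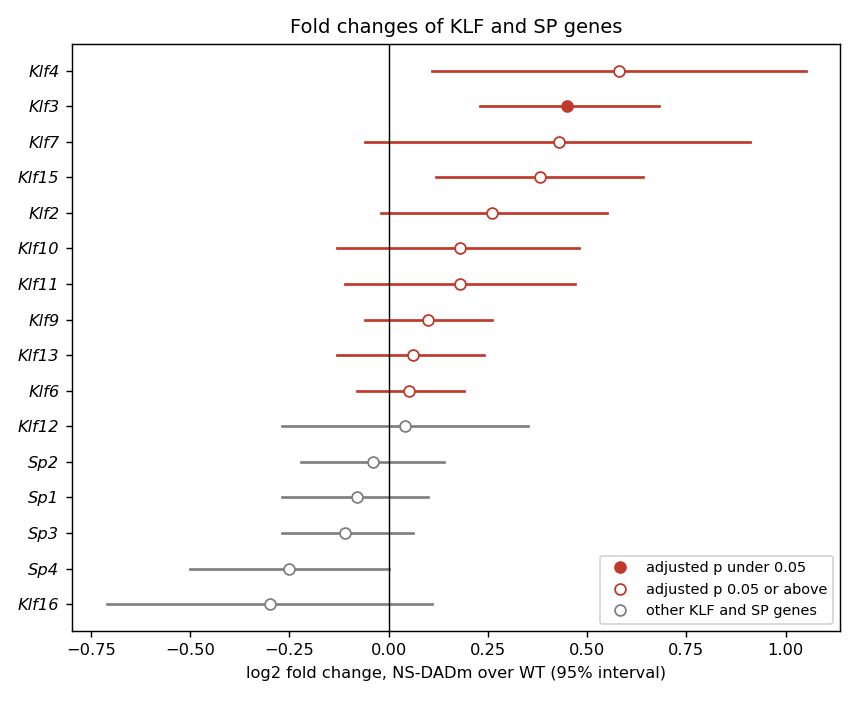
Log2 fold change, NS-DADm over WT, with its 95% interval for the 10 KLF genes (red) and for the 6 other KLF and SP genes that were tested (grey); a filled point passed the adjusted threshold. All 10 red points lie above 0, and Klf3 is the filled one, at 0.45.

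Klf3, the CtBP-recruiting repressor (gene ID 16599), had 14.01, 16.29 and 14.32 FPKM in NS-DADm 1, 2 and 3, against 10.02, 10.91 and 12.28 FPKM in WT 1, 2 and 3. The lowest NS-DADm sample was above the highest WT sample. The mean was 14.9 ± 1.24 FPKM in NS-DADm and 11.1 ± 1.14 FPKM in WT (SD, n = 3 each), a 1.37-fold rise (log2 fold change 0.45, SE 0.10, adjusted p = 0.0427, edgeR). It rested on 390 to 467 counts per sample in NS-DADm and 242 to 310 in WT. The rise was 1.56-fold between the libraries of low atrial transcripts, at 16.29 FPKM in NS-DADm 2 against 10.02 and 10.91 FPKM in WT 1 and 2. Between the high-atrial libraries it was 1.15-fold, at 14.01 and 14.32 FPKM in NS-DADm 1 and 3 against 12.28 FPKM in WT 3. The call ended without WT 1 (edgeR adjusted p = 0.132), WT 2 (0.147), NS-DADm 1 (0.0821), NS-DADm 2 (0.106) or NS-DADm 3 (0.0653), and with an atrial score as a covariate (0.0509). It also ended with limma on log2-transformed FPKM, at an added value of 1 (adjusted p = 0.0727) or 0.1 (0.0724). Over the 14 alternatives the adjusted p of Klf3 ran from 0.0176 to 0.147 and its log2 fold change from 0.37 to 0.53.

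Ctbp1 and Ctbp2, which encode those CtBP corepressors, were among 7 genes of corepressor proteins that KLFs recruit, with SIN3A and its deacetylases. None of the 7 passed the edgeR test, 1 had an unadjusted p under 0.05, and the median log2 fold change was 0.05. The exception at the unadjusted level was Hdac2, with 29.0 ± 1.98 FPKM in NS-DADm and 35.5 ± 0.897 FPKM in WT (SD, n = 3 each, edgeR adjusted p = 0.0907), a gene named because of these values.

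The profile of Klf3 over the 6 samples was most like those of Dhrs3, a retinaldehyde reductase, Heg1, an endothelial membrane protein, and Phka1, a subunit of phosphorylase kinase in muscle. Likeness was the root mean square difference between log2 CPM profiles centred on each gene's mean, over the 11138 tested genes that had a mean of at least 1 FPKM and no placeholder name of the Gm or Rik kind. It was 0.0470 for Dhrs3, 0.0535 for Heg1 and 0.0539 for Phka1 on the log2 scale. Dhrs3 had 78.53, 85.55 and 82.17 FPKM in NS-DADm 1, 2 and 3, against 53.12, 63.64 and 67.65 FPKM in WT 1, 2 and 3. As in Klf3, WT 1 was the lowest sample and NS-DADm 2 the highest. Such genes share the libraries and the group difference with Klf3, so the likeness is a description of 6 samples.

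Klf15, the metabolic regulator of heart muscle (gene ID 66277), had 42.40, 48.54 and 45.03 FPKM in NS-DADm 1, 2 and 3, against 32.64, 30.58 and 42.98 FPKM in WT 1, 2 and 3. WT 3 overlapped the NS-DADm range, and WT 1 and 2 lay below it. The mean was 45.3 ± 3.08 FPKM in NS-DADm and 35.4 ± 6.64 FPKM in WT (SD, n = 3 each, log2 fold change 0.38, SE 0.12, edgeR adjusted p = 0.113), so Klf15 did not pass. The ratio of NS-DADm to WT means was 1.54 between the libraries of low atrial transcripts and 1.02 between the high-atrial ones. Without WT 3 the gene was called (edgeR adjusted p = 0.0126), as it was with DESeq2's Wald test (0.0286), while the adjusted p without each of the other samples ran up to 0.345. With the atrial score as a covariate, the log2 fold change of Klf15 was 0.33 (SE 0.11, edgeR adjusted p = 0.145). WT 3 was the only WT library on the high-atrial side of the ratio. The contribution of atrial tissue to the level in WT 3 was not tested.

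Genes that Klf15 and related KLFs are known to regulate in metabolism and in the heart did not move one way. Of 14 tested, Ctgf rose, Kcnip2 fell and 12 did not pass the edgeR test. Of the same 14, 5 had an unadjusted p under 0.05 (2 higher, 3 lower), against 18.1% of all tested genes. The median log2 fold change was -0.04. The list was not split by direction of regulation, so these counts and this median give no measure of Klf15 activity. Kcnip2, a potassium channel subunit whose expression Klf15 controls in mouse heart, averaged 43.7 ± 4.52 FPKM in NS-DADm and 109 ± 14.0 FPKM in WT (SD, n = 3 each, log2 fold change -1.27, edgeR adjusted p = 0.000307). Ctgf, a matrix signalling protein that Klf15 represses in heart cells, averaged 97.6 ± 15.7 FPKM in NS-DADm and 44.1 ± 14.3 FPKM in WT (SD, n = 3 each, edgeR adjusted p = 0.0112). Both genes were known from earlier results of these data.

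Klf4 (gene ID 16600), which acts in endothelium, smooth muscle and macrophages, had 36.49, 30.05 and 18.82 FPKM in NS-DADm 1, 2 and 3, against 22.98, 18.94 and 16.29 FPKM in WT 1, 2 and 3. NS-DADm 1 and 2 were above every WT sample, while NS-DADm 3 lay below WT 1 and WT 2. Its log2 fold change was the largest of the 10 genes, but its NS-DADm samples also spread the most relative to their mean. Klf4 averaged 28.5 ± 8.94 FPKM in NS-DADm and 19.4 ± 3.37 FPKM in WT (SD, n = 3 each, log2 fold change 0.58, SE 0.21, edgeR adjusted p = 0.181). The coefficient of variation between NS-DADm samples was 31.4%, against 3.07% from counting alone. Without NS-DADm 3 the gene was called (log2 fold change 0.81, edgeR adjusted p = 0.0169). The adjusted p without each of the other samples ran up to 0.456.

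Klf2 (gene ID 16598), the flow-induced endothelial factor, had 78.83, 56.03 and 63.93 FPKM in NS-DADm 1, 2 and 3, against 65.43, 49.14 and 53.82 FPKM in WT 1, 2 and 3. The groups overlapped, since WT 1 was above NS-DADm 2 and 3. The log2 fold change was 0.26 (SE 0.13, edgeR adjusted p = 0.311), with a ratio of means of 1.33 between the high-atrial libraries and 0.98 between the others.

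Markers of endothelium and genes up- or downstream of Klf2 and Klf4 there did not pass. Of 12 endothelial markers, none passed the edgeR test and 2 had an unadjusted p under 0.05, and their summed level was 363 to 379 FPKM in NS-DADm and 359 to 393 FPKM in WT. Pecam1 and Cdh5, the most abundant, averaged 70.1 ± 6.90 and 54.6 ± 1.97 FPKM in NS-DADm, against 62.4 ± 8.46 and 61.3 ± 1.84 FPKM in WT (SD, n = 3 each). Of 10 genes known to respond to Klf2 or Klf4 in endothelium, none passed and none had an unadjusted p under 0.05 (edgeR, median log2 fold change 0.06). This list was not split by direction of regulation, so its median gives no measure of Klf2 or Klf4 activity. It also shares genes with the endothelial markers. Of 6 genes of the ERK5 kinase pathway and MEF2 factors, which induce Klf2 and Klf4 in endothelium, none passed and 1 had an unadjusted p under 0.05 (edgeR, median log2 fold change 0.00).

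Among macrophage markers, 5 of 12 rose in NS-DADm (C1qa, C1qc, C1qb, Folr2 and Csf1r) and 7 did not pass in the edgeR test. Over all tested genes, 3.20% were called and 18.1% had an unadjusted p under 0.05. Of the 12 macrophage markers, 10 had an unadjusted p under 0.05, and the median log2 fold change was 0.39. Their summed level was 393 to 452 FPKM in NS-DADm and 301.5 to 339.7 FPKM in WT, and no marker was at 0 throughout. The complement subunits C1qa, C1qc and C1qb averaged 83.7 ± 3.94, 67.0 ± 6.39 and 72.2 ± 8.08 FPKM in NS-DADm, against 60.3 ± 2.31, 45.0 ± 1.52 and 50.8 ± 0.610 FPKM in WT (SD, n = 3 each). The folate receptor gene Folr2 averaged 19.8 ± 0.683 FPKM in NS-DADm and 12.1 ± 2.51 FPKM in WT (SD, n = 3 each). Lyz2, the most abundant marker, averaged 138 ± 12.8 FPKM in NS-DADm and 112 ± 14.9 FPKM in WT (SD, n = 3 each, edgeR adjusted p = 0.119). Klf2, Klf4 and Klf6 are also known from macrophages, and the part of macrophage RNA in their levels was not tested. Smooth muscle and pericyte markers, another source of Klf4 transcripts, summed to 304 to 344 FPKM in NS-DADm and 375 to 399 FPKM in WT, with 0 of 8 passing in the edgeR test. At an unadjusted p under 0.05 stood 6 of them, 2 higher and 4 lower in NS-DADm. Rgs5 and Abcc9, the most abundant of them, averaged 167 ± 14.6 and 57.8 ± 6.15 FPKM in NS-DADm, against 214 ± 16.4 and 69.4 ± 2.65 FPKM in WT (SD, n = 3 each). The contractile markers Myh11 and Cnn1 were the higher pair, at 6.49 ± 2.03 and 2.20 ± 1.38 FPKM in NS-DADm, against 4.69 ± 0.996 and 0.877 ± 0.524 FPKM in WT (SD, n = 3 each, edgeR adjusted p = 0.238 and 0.200), and are named because of these values.

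Other cells contributed transcripts with 0 called markers in the edgeR test. All 5 erythroid markers had an unadjusted p under 0.05, against 18.1% of all tested genes, and were lower in NS-DADm. They summed to 3394 to 6679.6 FPKM in NS-DADm and 6708 to 7970.2 FPKM in WT, led by the globin genes Hba-a1 and Hbb-bs at 1862 ± 622 and 1594.5 ± 519 FPKM in NS-DADm, against 2739 ± 269.9 and 2325 ± 209.8 FPKM in WT (SD, n = 3 each). Fibroblast markers summed to 568 to 696 FPKM in NS-DADm and 590.1 to 682 FPKM in WT, led by Dcn and Dpt. Adipocyte markers summed to 44.2, 6.84 and 230.6 FPKM in NS-DADm 1, 2 and 3, against 8.76, 3.05 and 66.9 FPKM in WT 1, 2 and 3, led by Cfd and Adipoq. They were highest in the high-atrial libraries, whose atrial markers were led by Nppa and Myl4. Lymphocyte markers summed to at most 5.22 FPKM, neutrophil markers to at most 4.39 FPKM and skeletal muscle markers to at most 3.67 FPKM in any sample. The part of these cells in the levels of the KLF genes was not tested.

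**Figure D3:**
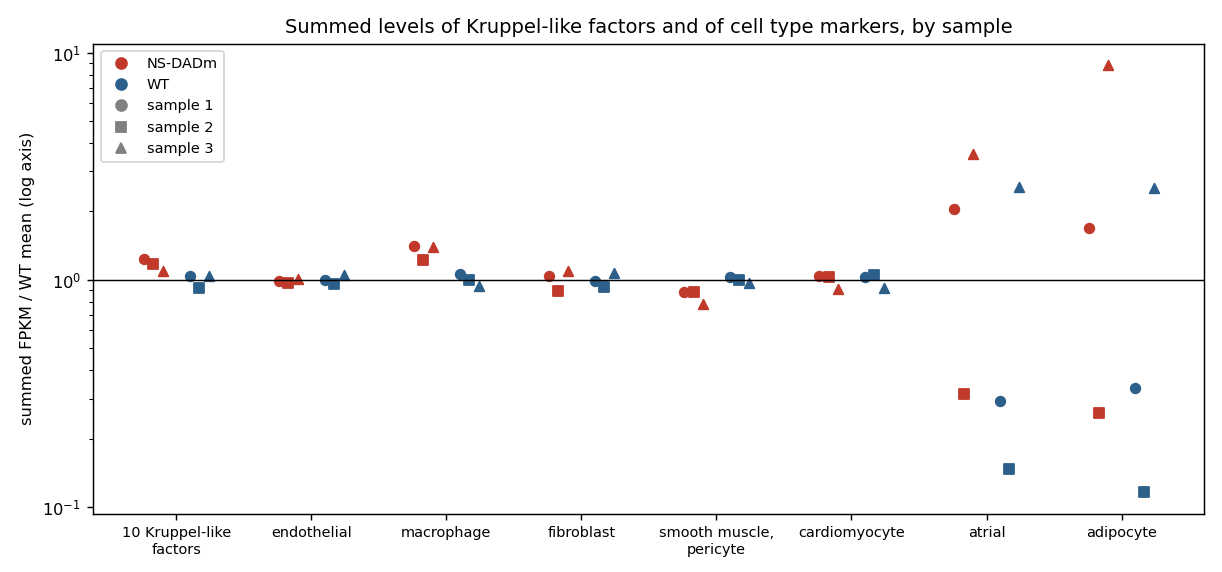
Summed FPKM of the 10 KLF genes and of 7 cell type marker lists in each sample, divided by the mean of the WT samples, on a log axis; red is NS-DADm, blue is WT and symbols mark the sample number. The KLF sum and the macrophage markers in NS-DADm lie above those in WT, and the smooth muscle and pericyte markers lie below, each without overlap. Endothelial markers overlap, and atrial and adipocyte markers split the libraries within both groups.

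Klf6 (gene ID 23849), a widely expressed factor induced by tissue injury, had the smallest pooled SD within groups of the 10 genes, 0.05 in log2 FPKM. In NS-DADm alone Klf13 varied less, with a coefficient of variation of 1.38% against 4.64% for Klf6. Klf6 had 29.20, 27.64 and 26.64 FPKM in NS-DADm 1, 2 and 3, against 27.44, 27.30 and 27.13 FPKM in WT 1, 2 and 3. The WT samples lay inside the NS-DADm range. The fold change was 1.04 with a 95% interval of 0.94 to 1.14 (edgeR adjusted p = 0.722). The coefficient of variation in WT, 0.569%, was below the 2.87% that counting alone gives. Because a ratio within a library does not depend on library scaling, Klf3 was also set against Klf6. The ratio of Klf3 to Klf6 in FPKM was 0.480, 0.589 and 0.538 in NS-DADm 1, 2 and 3, against 0.365, 0.400 and 0.453 in WT 1, 2 and 3, with no overlap. This pair was chosen after the values were seen. With Klf6 nearly constant and Klf3 already without overlap, the ratio restates the Klf3 values and is no further support.

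Klf9 (gene ID 16601), the hormone-responsive KLF gene, had 58.37, 64.95 and 61.40 FPKM in NS-DADm 1, 2 and 3, against 57.69, 54.43 and 63.09 FPKM in WT 1, 2 and 3. The groups overlapped, and the fold change was 1.07 with a 95% interval of 0.96 to 1.20 (edgeR adjusted p = 0.514). The ratio of NS-DADm to WT means was 0.95 between the high-atrial libraries and 1.16 between the others. Other genes known to respond to glucocorticoids were higher in part. Of 15, 4 rose (Cdkn1a, Mt2, Mt1 and Dusp1) and 11 did not pass the edgeR test, against 3.20% of all tested genes called. All 15 had a positive fold change, against 49.3%, and 5 an unadjusted p under 0.05, against 18.1%. The median log2 fold change was 0.39. Cdkn1a, a cell cycle inhibitor, averaged 34.0 ± 3.57 FPKM in NS-DADm and 13.9 ± 2.80 FPKM in WT (SD, n = 3 each, edgeR adjusted p = 0.00112). Mt1, a metallothionein, averaged 504 ± 53.3 FPKM in NS-DADm and 340.5 ± 42.2 FPKM in WT, and Dusp1, a phosphatase that restrains kinase signalling, 52.0 ± 3.76 FPKM in NS-DADm and 40.0 ± 5.16 FPKM in WT (SD, n = 3 each). Mt2, a relative of Mt1, averaged 115 ± 39.2 FPKM in NS-DADm and 48.4 ± 1.57 FPKM in WT (SD, n = 3 each, edgeR adjusted p = 0.00845). Fkbp5, Tsc22d3, Per1 and Zbtb16 of the same list did not pass (edgeR adjusted p = 0.437, 0.471, 0.475 and 0.338). They overlapped between the groups and are named because of these values. Dusp1 is also counted among the immediate early genes that rose.

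Klf10 (gene ID 21847) and Klf11 (gene ID 194655) did not pass and overlapped between the groups. Klf10 had 7.32, 8.52 and 5.91 FPKM in NS-DADm 1, 2 and 3, against 7.15, 5.95 and 6.49 FPKM in WT 1, 2 and 3 (log2 fold change 0.18, SE 0.14, edgeR adjusted p = 0.544). Klf11 had 4.64, 5.10 and 3.66 FPKM in NS-DADm 1, 2 and 3, against 4.13, 4.04 and 3.89 FPKM in WT 1, 2 and 3 (log2 fold change 0.18, SE 0.13, edgeR adjusted p = 0.520). Between the high-atrial libraries the ratio of NS-DADm to WT means was 1.02 for Klf10 and 1.07 for Klf11, and between the others 1.30 and 1.25. In both genes NS-DADm 2 was the highest and NS-DADm 3 the lowest of the 6 samples. Of 11 transforming growth factor beta ligands and early response genes, 1 rose, the ligand gene Tgfb3, and 10 did not pass the edgeR test, with a median log2 fold change of 0.28. All 11 had a positive fold change, against 49.3% of all tested genes, and 8 had an unadjusted p under 0.05, against 18.1%. Tgfb3 averaged 10.3 ± 1.15 FPKM in NS-DADm and 7.05 ± 1.22 FPKM in WT (SD, n = 3 each, edgeR adjusted p = 0.0339).

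Klf13 (gene ID 50794), which recruits the SIN3A corepressor, had 15.05, 15.02 and 14.68 FPKM in NS-DADm 1, 2 and 3, against 14.09, 13.07 and 16.61 FPKM in WT 1, 2 and 3. The high-atrial library WT 3 was the highest of all. The NS-DADm samples lay within the WT range, and the fold change was 1.04 with a 95% interval of 0.91 to 1.18 (edgeR adjusted p = 0.785). The ratio of NS-DADm to WT means was 0.89 between the high-atrial libraries and 1.11 between the others. Klf7 (gene ID 93691), known from neurons, was the least abundant, with 4.49, 3.63 and 3.64 FPKM in NS-DADm 1, 2 and 3, against 3.44, 2.17 and 3.28 FPKM in WT 1, 2 and 3. The groups did not overlap, but Klf7 did not pass (log2 fold change 0.43, SE 0.22, edgeR adjusted p = 0.338). It had 57 to 71 counts in NS-DADm and 28 to 47 in WT, from which counting alone gives a coefficient of variation of 12.7% and 15.7%.

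NS-DADm 1 was the highest sample of its group for Klf2, Klf4, Klf6, Klf7 and Klf13, and NS-DADm 2 for Klf3, Klf9, Klf10, Klf11 and Klf15. WT 1 was the highest of its group for Klf2, Klf4, Klf6, Klf7, Klf10 and Klf11, and WT 3 for Klf3, Klf9, Klf13 and Klf15. NS-DADm 3 and WT 2 were the highest of their group for 0 of the 10 genes. The KLF genes thus did not share a single order over the libraries, and Klf3 and Klf15 were lowest in the same NS-DADm sample as Klf9 was, NS-DADm 1. In Klf4, Klf6 and Klf7 the ratio of NS-DADm to WT means was 1.70, 1.03 and 1.24 between the high-atrial libraries and 1.43, 1.01 and 1.29 between the others.

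Immediate early genes, which are induced within minutes and to which Klf2, Klf4, Klf6 and Klf10 are often counted, were higher in part. Of 20 tested, 9 rose and 11 did not pass the edgeR test, against 3.20% of all tested genes called. Of the same 20, 13 had an unadjusted p under 0.05, against 18.1%, and 20 a positive fold change, against 49.3%. The median log2 fold change was 0.49. Nr4a1, a nuclear receptor, averaged 23.0 ± 6.52 FPKM in NS-DADm and 8.68 ± 0.996 FPKM in WT, and Maff, a small MAF factor, 8.05 ± 1.01 FPKM in NS-DADm and 3.80 ± 0.594 FPKM in WT (SD, n = 3 each). Ier5 and Junb, both transcription regulators, averaged 19.4 ± 0.370 and 11.8 ± 0.864 FPKM in NS-DADm, against 12.9 ± 2.04 and 8.16 ± 0.940 FPKM in WT (SD, n = 3 each). The edgeR adjusted p was 0.00511 for Nr4a1, 0.00603 for Maff, 0.0138 for Ier5 and 0.0229 for Junb. Whether these genes responded differently from the KLF genes was not tested. Of 19 genes of the circadian clock, which drives Klf9, Klf10 and Klf15 in mouse tissues, Nfil3 and Clock rose and 17 did not pass the edgeR test, with a median log2 fold change of 0.02. An unadjusted p under 0.05 was reached by 8, 5 of them higher and 3 lower in NS-DADm. Nfil3, a repressor of clock output, averaged 12.6 ± 1.56 FPKM in NS-DADm and 5.32 ± 1.60 FPKM in WT, and Clock 5.48 ± 0.0608 FPKM in NS-DADm and 4.43 ± 0.200 FPKM in WT (SD, n = 3 each, edgeR adjusted p = 0.00647 and 0.0405). Arntl, the gene of BMAL1, did not pass but had the largest log2 fold change of the list, 1.53, with no overlap between the groups (edgeR adjusted p = 0.0508). It rested on 36 to 51 counts in NS-DADm and 8 to 21 in WT, and is named because of these values. The hour at which tissue was taken is not stated in the labels.

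Among 16 other genes of the KLF and SP families, which share the zinc fingers, 6 passed the filter on low counts and none of them passed the edgeR test or had an unadjusted p under 0.05. Their median log2 fold change was -0.10, and 1 of the 6, Klf12, had a positive value and is named because of it. Sp3, the most abundant, averaged 12.5 ± 0.103 FPKM in NS-DADm and 13.8 ± 0.845 FPKM in WT, with no overlap between the groups (SD, n = 3 each, log2 fold change -0.11, edgeR adjusted p = 0.480). Klf16 averaged 2.21 ± 0.438 FPKM in NS-DADm and 2.77 ± 0.171 FPKM in WT (SD, n = 3 each, log2 fold change -0.30, edgeR adjusted p = 0.432), and is named because of these values. Of 6 coactivators and ubiquitin ligases that act on KLFs, none passed and none had an unadjusted p under 0.05 (edgeR, median log2 fold change 0.00).

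Each KLF gene had 1 listed transcript, whose count equalled that of the gene, so the transcript tables gave no isoform comparison. Fitted among 17498 transcripts, of which 17 were called, none of the 10 passed. The Klf3 transcript had the same log2 fold change of 0.45 with an edgeR adjusted p of 0.235, and it and the Klf15 transcript had an unadjusted p under 0.05.

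**Figure D4:**
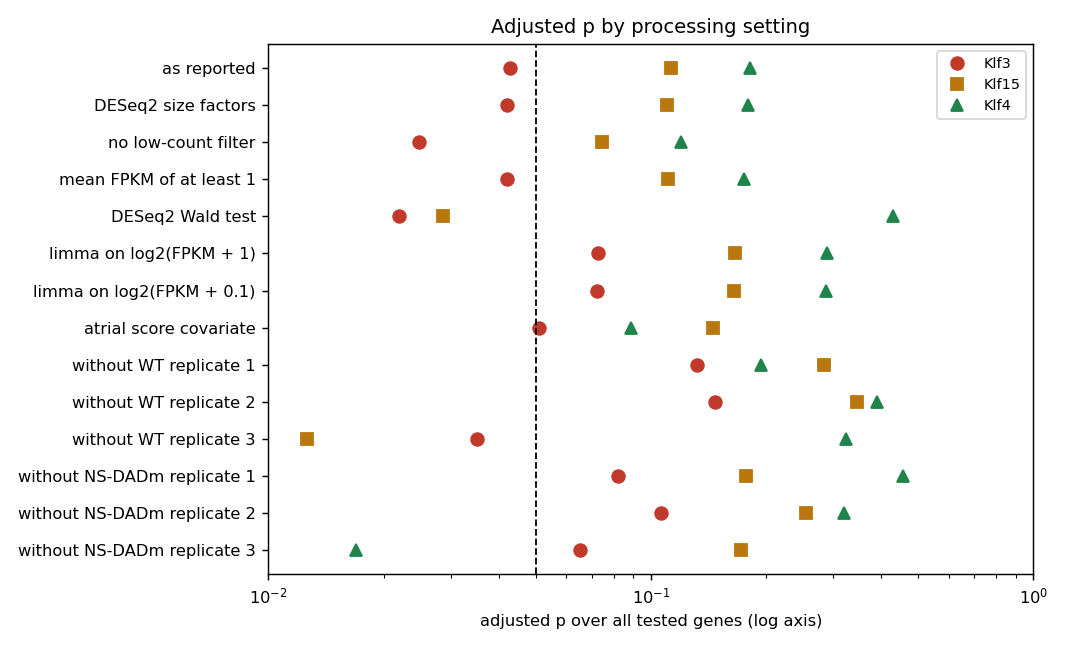
Adjusted p over all tested genes (log axis) for Klf3, Klf15 and Klf4 as reported and under each alternative without a replicate block; the dashed line is 0.05. Klf3 lies left of the line as reported and crosses it in 8 alternatives, Klf15 is left of it with DESeq2's test and without WT 3, and Klf4 without NS-DADm 3.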

How the data were processed

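RNA of 6 myocardium samples was measured by sequencing. Per the labels' protocols, RNA was extracted with Trizol and libraries were built by BGI's standard protocols. The aligner HISAT is named, without a version, in the submitters' processing notes. Counter, genome build and annotation are not stated in the labels or headers. The authors deposited expected counts (estimated reads per gene or transcript) and FPKM, per the file headers. A gene not listed in a sample was taken as 0; listed genes had an FPKM of at least 0.01. The 1 row with no gene symbol was dropped (up to 3.2e-04% of counts).

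Expected counts, of which 10.8% to 11.6% of genes were not whole, were rounded. Genes were filtered by filterByExpr and scaled by TMM, and NS-DADm was compared with WT by edgeR's quasi-likelihood test (edgeR 4.0.16, limma 3.58.1, DESeq2 1.42.0, R 4.3.3). Benjamini-Hochberg adjustment covered all 13130 tested genes. The biological coefficient of variation was 0.106. Standard errors were computed from fold changes and F statistics. Coefficients of variation from counting cover counting error only. The tests were checked on simulated counts.

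The KLF genes, the lists of related genes and markers and the alternatives were chosen with earlier results of these data known. Named genes are the 10 KLF genes, up to 4 called genes of smallest p from each list, the 2 most abundant markers of a cell type (where its markers summed to over 10 FPKM in some sample), other KLF and SP genes that were called or had a mean of at least 10 FPKM, and the 3 profiles most like a called KLF gene; called genes of a list with 5 or fewer are also listed by name, and others are said to be named because of their values. Fibroblast, lymphocyte, neutrophil and erythroid markers had 0 called genes of 8, 3, 1 and 5 tested (edgeR; 3, 0, 0 and 5 at an unadjusted p under 0.05), adipocyte and atrial markers 0 of 5 and 0 of 6 (1 and 0), cardiomyocyte markers 0 of 8 (2), and none of 8 skeletal muscle markers passed the filter.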

Additional observations from a re-analysis of the deposited data

How the results depend on the processing

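Over 14 alternatives the log2 fold change kept its positive sign in 9 of the 10 KLF genes. The exception was Klf13, which ran from -0.01 without WT 2 to 0.15 without WT 3, for the gene and likewise for its transcript. Within the high-atrial libraries the log2 ratio was negative for Klf9 (-0.08) and Klf13 (-0.16), and within the others for Klf2 (-0.03). The number of KLF genes called was 1 as reported, 2 with DESeq2's Wald test (Klf3 and Klf15), 0 with limma on the log2 scale of FPKM at an added value of 1 or 0.1, 0 with the atrial covariate, and 0 to 2 without each sample in turn. Over all genes, 420 were called as reported, 557 with DESeq2's Wald test and 445 with the atrial covariate. With limma at the added value of 1 and of 0.1, 272 and 267 were called. Without each sample in turn, 117 to 382 were called (117 without WT 2, 149 without WT 1, 181 without NS-DADm 1 and 273 without NS-DADm 2). Of those called, 56.0% were higher in NS-DADm as reported and 48.5% with limma on log2(FPKM + 1). The causes were not tested, beyond that fewer samples entered the fits without one. With a replicate block, 895 genes and 4 KLF genes were called, Klf2, Klf3, Klf4 and Klf15. The labels give shared numbers but state no pairing, so the numbers were not taken to pair the samples. Deviations correlated across genes at -0.093, 0.326 and 0.408 for same-numbered samples, and at -0.463 to 0.205 for differently numbered ones. Whether same-numbered samples are paired cannot be told from these values. The comparison within high-atrial and low-atrial libraries was chosen after seeing the data and carries no test. With 3 samples a group, Klf7, at 28 to 71 counts, was the KLF gene most limited by depth.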
